A study of Homo sapiens with 12 samples.

Results

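Beta-oxidation shortens fatty acids in mitochondria and in peroxisomes. A list of 42 genes for these enzymes and their close partners was followed in A375 cells, out of 23705 genes in the count table. The genes were listed by name, with no threshold on a measured value, and the list left out the carnitine shuttle and the acyl-CoA synthetases. It was divided by the usual location of the protein into 23 mitochondrial members, 13 peroxisomal members and 6 members of both or other compartments. All 42 were found in the table, and 40 passed edgeR's filter on low counts and were tested, among them 22 mitochondrial, 12 peroxisomal and 6 other members.

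A375 is a human metastatic melanoma line, used here at passages 30 to 32 in DMEM with 10% FBS. The cells were treated for 24 h with DMSO vehicle, with 5 μM of rosiglitazone (RGZ), an agonist of the nuclear receptor PPARγ, with 2 μM of T0070907, a PPARγ antagonist, or with both compounds (the combination). The compounds were dissolved in DMSO, which was diluted 1 in 10000. Each of the 4 conditions had 3 libraries, 1 from each of 3 independent experiments, in which the RNA of technical replicates was pooled. All values therefore describe a single cell line.

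Library totals lay between 8319455 and 11375227 counts. Levels are given as CPM, the count relative to the library total after TMM scaling, and the detection floor of 3 counts equalled 0.258 to 0.371 CPM. The melanocyte lineage factors *SOX10* and *MITF* had at least 1558 and 240 counts in every library, whereas the pigment genes *TYR*, *DCT*, *MLANA* and *PMEL* had at most 13, and *TYR* was at 0 in all 12. As a check of the treatment, the PPARγ target *FABP4* had 1 count in each vehicle library, 1895, 3513 and 1648 counts under RGZ, 1, 3 and 0 under T0070907 and 9, 9 and 25 counts in the combination. *ANGPTL4*, another PPARγ target, averaged 5.67 CPM in vehicle, 428 under RGZ, 0.628 under T0070907 and 19.4 in the combination. *PPARG* itself averaged 82.2, 72.1, 81.9 and 83.3 CPM in the same order.

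In each turn of mitochondrial beta-oxidation, an acyl-CoA dehydrogenase, an enoyl-CoA hydratase, a hydroxyacyl-CoA dehydrogenase and a thiolase remove an acetyl-CoA unit. The electrons of the first step pass through the electron transfer flavoprotein to ubiquinone and so to the respiratory chain. Peroxisomes shorten very long and branched chains and use an oxidase that gives hydrogen peroxide in place of the dehydrogenase. PPARγ, paired with a retinoid X receptor, binds repeats of the element AGGTCA that are separated by a single base, and fatty acid genes are known targets of the PPAR family.

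The members that differed most between the conditions were *ACAA2* (NCBI gene 10449), the thiolase of the mitochondrial spiral, *ETFA* (NCBI gene 2108), the alpha subunit of the electron transfer flavoprotein, and *ACADVL* (NCBI gene 37), the very long-chain acyl-CoA dehydrogenase. Because these 3 genes moved together, the 250 bases upstream of their annotated starts are shown, read 5′ to 3′ on the strand of the gene, from RefSeq for GRCh38.p14. They lie at chr18:49813534-49813783 (minus strand), chr15:76311470-76311719 (minus strand) and chr17:7216875-7217124 (plus strand). Capitals mark a match to AGGTCANAGGTCA with up to 2 mismatches in its 12 defined letters.
ACAA2: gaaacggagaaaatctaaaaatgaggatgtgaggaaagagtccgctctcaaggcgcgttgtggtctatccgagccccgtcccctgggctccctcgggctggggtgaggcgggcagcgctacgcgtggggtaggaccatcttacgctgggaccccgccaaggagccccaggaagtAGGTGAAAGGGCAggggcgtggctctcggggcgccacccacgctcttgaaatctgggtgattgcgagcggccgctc
ETFA: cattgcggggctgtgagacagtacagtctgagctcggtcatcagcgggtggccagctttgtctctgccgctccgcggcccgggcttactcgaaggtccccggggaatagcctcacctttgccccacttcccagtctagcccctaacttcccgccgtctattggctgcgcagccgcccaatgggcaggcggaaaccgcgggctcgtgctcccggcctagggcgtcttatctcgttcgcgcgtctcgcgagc
ACADVL: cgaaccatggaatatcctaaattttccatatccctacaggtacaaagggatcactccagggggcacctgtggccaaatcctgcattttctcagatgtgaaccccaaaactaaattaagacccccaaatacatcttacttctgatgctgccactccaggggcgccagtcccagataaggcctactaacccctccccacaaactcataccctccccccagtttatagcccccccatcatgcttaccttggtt

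Promoter windows of 300 bases, from 250 before to 50 after the start, were found for 34 of the 42 members, which leaves *ETFDH*, *DECR1*, *DECR2*, *ACOX2*, *EHHADH*, *ACAA1*, *ACAD11* and *ACOT1*. Searched on both strands, 2 of the 34 held the repeat with up to 2 mismatches, against 816 of all 27305 promoters (2.99%). These were *ACAA2*, where the matched bases AGGTGAAAGGGCA began 76 bases before the start with 2 mismatches, and *UCP3*, which encodes a mitochondrial uncoupling protein. With up to 1 mismatch, 0 of 34 member windows and 0.348% of all promoters held the repeat. The single element AGGTCA, which is contained in an exact match of the repeat, was found in 3 member windows (*UCP3*, *ACAD10* and *ACOT7*) and in 13.9% of all promoters. These letter matches are descriptions of sequence and do not show that a receptor binds there, and the windows of *ETFA* and *ACADVL* only lacked these letters. A single annotated start was used for each gene, so that promoters at any other start, also of *ACADVL*, were not searched. *HADHA* and *HADHB*, which encode the subunits of the mitochondrial trifunctional protein, are divergent neighbours whose windows shared 194 bases.

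The mitochondrial members had the higher median level in vehicle-treated cells. To compare genes, CPM were divided by the length of each gene's longest GENCODE transcript. Their median was 20.3 CPM per kb over 22 genes, against 8.41 for the 12 peroxisomal members, 1.06 for the 6 others and 7.81 for the 13305 tested genes with a known length. The highest was *ACADVL*, at 219 ± 20.5 CPM per kb (mean ± SD, n = 3), and 98.4% of the tested genes did not exceed this level. It was followed by *HSD17B10*, a short-chain hydroxyacyl-CoA dehydrogenase, at 157 ± 13.1 and *ECHS1*, the short-chain enoyl-CoA hydratase, at 123 ± 8.6 CPM per kb (SD, n = 3 each). *ETFA* reached 105 ± 8 and *ACAA2* 11.1 ± 0.261 CPM per kb, levels that 95.4% and 58.5% of the tested genes did not exceed.

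The peroxisomal members reached lower levels per length. *HSD17B4*, the D-bifunctional protein that carries out the hydratase and dehydrogenase steps, led with 26.1 ± 0.745 CPM per kb, ahead of *HACL1*, a lyase of alpha-oxidation, with 21.3 ± 0.591 and the transporter *ABCD3* with 13.5 ± 1.35 (SD, n = 3 each). *EHHADH*, the L-bifunctional protein, was lowest among the tested peroxisomal members at 1.04 CPM per kb. Of the members outside both lists, *ACOT7*, an acyl-CoA thioesterase, had 87.3 ± 8.19, *ECI2*, an enoyl-CoA isomerase, 11.3 ± 1.06, and *ACOT1*, a cytosolic thioesterase, 1.27 ± 0.226 CPM per kb (SD, n = 3 each).

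**Figure D1:**
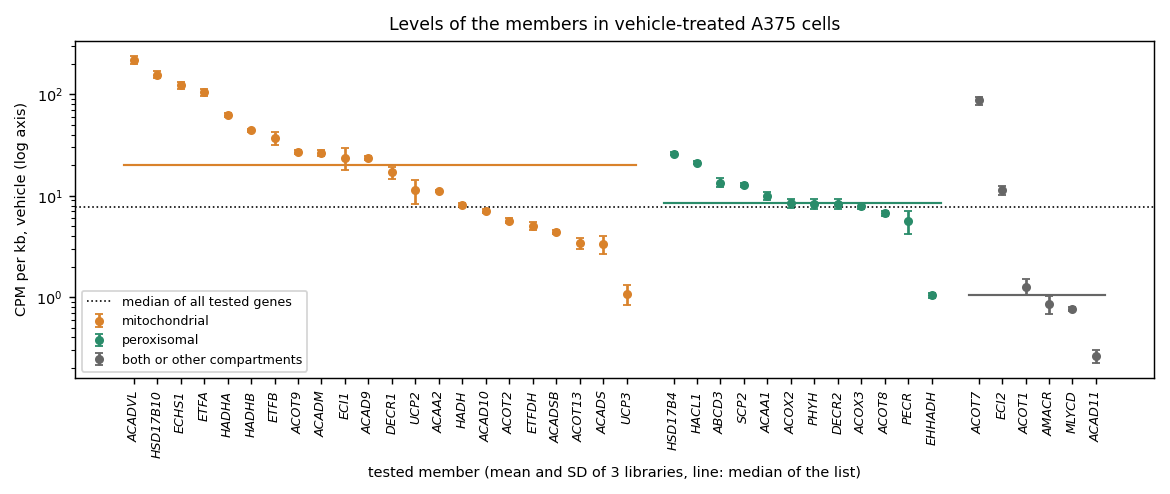
Level of each tested member in vehicle-treated cells, in CPM per kb of the longest transcript on a log axis, as mean and SD of 3 libraries. Coloured lines mark the medians of 20.3 (mitochondrial), 8.41 (peroxisomal) and 1.06 CPM per kb (both or other compartments), and the dotted line marks 7.81 CPM per kb, the median of all tested genes with a known length.

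*ACADL*, the long-chain acyl-CoA dehydrogenase, and *ABCD2*, a peroxisomal transporter of very long chains, did not pass the filter. *ACADL* had 3, 0 and 5 counts in the vehicle libraries, 4, 3 and 5 under RGZ, 1, 1 and 8 under T0070907 and 2, 3 and 6 in the combination. *ABCD2* had between 0 and 4 counts in all libraries, so that no difference in either gene was detectable at this depth. For members whose exons overlap another gene, reads may be shared, since the strand setting of the counting is not given in the sources used here. The overlap reached 64% of the exon bases of *ACAD11* and 64.8% of those of *AMACR* on the same strand, while *ETFA*, *HADHA*, *HADHB* and *ACADS* had none. It was 7.6% for *ACAA2* on the same strand, and on the opposite strand 1.7% for *ACADVL* and 13.8% for *ETFDH*. *ACOT1* and *ACOT2* are near-identical copies whose counts may also be shared.

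RGZ alone was compared with vehicle to see which of these genes follow the agonist. Of the 40 tested members, 3 were called at an adjusted p-value under 0.05 in edgeR's quasi-likelihood test (Benjamini-Hochberg adjustment over all 13522 tested genes), all 3 higher with RGZ and all 3 mitochondrial, when 1.24% of all tested genes were called. With the experiment as a block in the model, 7 members were called, again all mitochondrial and all higher, against 9.3% of all genes. The median log2 fold change was 0.07 over the 22 mitochondrial, 0.01 over the 12 peroxisomal and -0.03 over the 6 other members, and it was -0.01 over all tested genes.

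In experiments 1 to 3, *ACAA2* had 36.4, 38.1 and 36.7 CPM in the vehicle libraries, and 57.5, 73.3 and 67.2 CPM under RGZ. Under T0070907 it had 22.2, 23.7 and 22.1 CPM, and in the combination 38, 38.2 and 44.7 CPM. Every RGZ library was above, and every T0070907 library below, all vehicle libraries, while the combination overlapped vehicle. In bulk RNA, a change in the share of cells that hold an mRNA cannot be told apart from a change in its level per cell. With RGZ the level was 1.78-fold that of vehicle, and the log2 fold change of 0.83 had a standard error of 0.10 (adjusted p = 0.00148 without and 2.33e-06 with the block).

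*ETFA* had 233, 262 and 228 CPM with vehicle and 372, 401 and 379 CPM with RGZ. Under T0070907 its levels were 171, 184 and 178 CPM, and in the combination 233, 242 and 264 CPM. The order of the conditions was that of *ACAA2*, with no overlap between vehicle and either single compound. RGZ raised it 1.59-fold, by 0.67 ± 0.07 on the log2 scale (from here on ± gives the standard error of a log2 difference). The adjusted p was 0.000726 without and 3.99e-07 with the block.

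*ACADVL* had 464, 559 and 522 CPM in the vehicle libraries and 661, 751 and 774 CPM under RGZ. The T0070907 libraries had 347, 412 and 367 CPM and the combination had 502, 513 and 580 CPM. All libraries of RGZ again lay above, and all of T0070907 below, those of vehicle. RGZ raised it 1.42-fold, by 0.50 ± 0.09 on the log2 scale (adjusted p = 0.0268 without and 1.87e-05 with the block). Without the block, this call was lost when library 1 (adjusted p = 0.115) or 3 (0.101) of vehicle, or library 2 (0.105) or 3 (0.114) of RGZ, was left out, at log2 fold changes between 0.43 and 0.51, and also in the fit of only the groups compared (adjusted p = 0.0755). *ACAA2* and *ETFA* were called for RGZ under all 21 alternatives.

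The other members called for RGZ with the block were *HADHA*, *ETFDH*, *ETFB* and *ACADS*. *HADHA*, which carries the hydratase and long-chain dehydrogenase activities of the trifunctional protein, had 183, 200 and 194 CPM with vehicle and 207, 248 and 228 CPM with RGZ. These groups did not overlap, and RGZ differed from vehicle by 0.24 ± 0.07 on the log2 scale (adjusted p = 0.209 without and 0.00763 with the block). Its partner *HADHB*, which carries the thiolase, was at 0.20 and was not called (adjusted p = 0.342 and 0.0552).

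*ETFDH*, the oxidoreductase that hands electrons from the flavoprotein to ubiquinone, had 16, 18.1 and 15.4 CPM with vehicle and 20.5, 22.7 and 22.9 CPM with RGZ. The difference was 0.42 ± 0.11 on the log2 scale (adjusted p = 0.12 without and 0.0146 with the block). *ETFB*, the beta subunit of the flavoprotein, had 109, 141 and 143 CPM with vehicle and 141, 175 and 179 CPM with RGZ. The *ETFB* groups overlapped between 141 and 143 CPM and the *ETFDH* groups did not overlap. *ETFB* was higher with RGZ within each experiment, by 0.37, 0.31 and 0.33 on the log2 scale (adjusted p = 0.481 without and 0.0195 with the block). All 3 genes of the electron transfer branch were among the 7 called by edgeR with the block, while DESeq2 with the block did not call *ETFDH* (adjusted p = 0.0606).

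*ACADS*, the short-chain acyl-CoA dehydrogenase, was less abundant, with 6.81, 7.73 and 5.06 CPM with vehicle and 7.8, 12.8 and 8.73 CPM with RGZ. Its log2 fold change was 0.58 without the block and 0.57 with it (adjusted p = 0.358 and 0.0206, and 0.1 in DESeq2 with the block), and the increase within experiments ranged from 0.19 to 0.76. In the fit with the block, leaving out experiment 3 removed the calls of *HADHA* (adjusted p = 0.183), *ETFDH* (0.263), *ETFB* (0.259) and *ACADS* (0.271), and leaving out experiment 2 removed that of *ACADS* (0.161). *ACAA2*, *ETFA* and *ACADVL* were called whichever of the 3 experiments was left out.

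**Figure D2:**
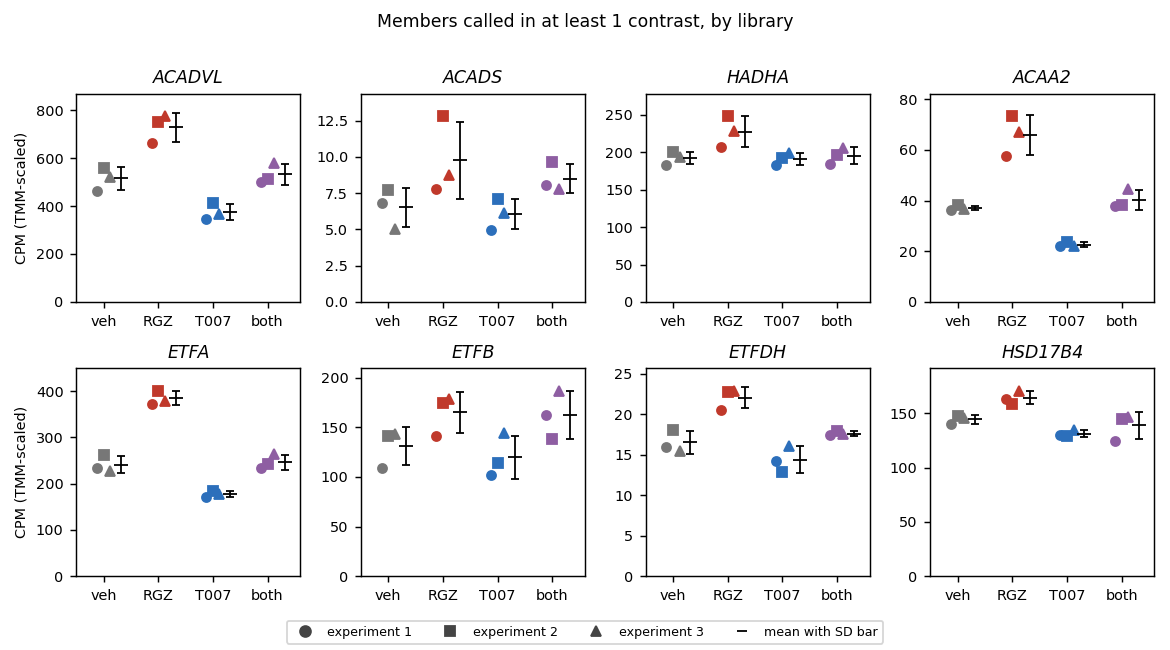
TMM-scaled CPM of the 8 members called in at least 1 contrast, for each library by condition (veh, vehicle; T007, T0070907; both, combination), with the experiment as symbol and mean and SD as bar. In *ACAA2*, *ETFA* and *ACADVL* the RGZ libraries sit above and the T0070907 libraries below those of vehicle, with the combination at the level of vehicle.

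Other mitochondrial members of the same steps had smaller differences, and none was called. *ACADM*, the medium-chain dehydrogenase, had a mean of 69 CPM with vehicle and 69.4 CPM with RGZ, a log2 fold change of 0.01 with a 95% interval from -0.16 to 0.18. *ECHS1* was at 0.02 (from -0.16 to 0.20), *HSD17B10* at 0.07 (from -0.17 to 0.30) and *HADH*, the medium- and short-chain hydroxyacyl-CoA dehydrogenase, at 0.17 (from 0.01 to 0.34, adjusted p = 0.433). The lowest log2 fold change of a mitochondrial member was -0.21, in *ACADSB*, the short/branched-chain dehydrogenase (adjusted p = 0.461 without and 0.175 with the block). For *ACADM* and *ECHS1* the intervals ended below the difference of 0.24 measured in *HADHA*.

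The auxiliary enzymes, thioesterases and uncoupling proteins of mitochondria included no call for RGZ. *ECI1*, the isomerase for unsaturated chains, was at 0.25 (95% interval from -0.13 to 0.64), *DECR1*, the reductase that also serves them, at -0.04 (from -0.35 to 0.26) and *ACAD9*, a dehydrogenase that also takes part in the assembly of complex I, at -0.01 (from -0.17 to 0.15). *UCP2* and *UCP3*, the uncoupling proteins, were at -0.04 (from -0.71 to 0.63) and 0.05 (from -0.42 to 0.52), wide intervals that cover changes as large as those of *ACADVL*. Of the thioesterases, which release free fatty acids from acyl-CoA, *ACOT2* was at -0.19, *ACOT13* at -0.10 and *ACOT9* at 0.08, with adjusted p-values of at least 0.422 in both fits.

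Among the 12 tested peroxisomal members, edgeR called 0 for RGZ without and 0 with the block, against 1.24% and 9.3% of all tested genes. DESeq2 called 0 of them without and 0 with the block, where it called 299 and 871 of all genes. A single peroxisomal member, *HSD17B4*, had an unadjusted p-value under 0.05, against 10.5% of all tested genes without and 22.1% with the block. It had 140, 148 and 146 CPM with vehicle and 163, 159 and 171 CPM with RGZ. These groups did not overlap, and the log2 fold change of 0.18 ± 0.07 came with an adjusted p of 0.319 without and 0.0551 with the block. The peroxisomal log2 fold changes lay between -0.17 and 0.18, those of the mitochondrial members between -0.21 and 0.83. *ACOX3*, a peroxisomal oxidase, was at -0.05 (95% interval from -0.28 to 0.18), *ACAA1*, the peroxisomal thiolase, at -0.05 (from -0.23 to 0.13) and *ABCD3* at 0.01 (from -0.16 to 0.18). *DECR2*, the peroxisomal counterpart of *DECR1*, was at 0.18 and *EHHADH* at 0.04, with wider intervals from -0.15 to 0.51 and from -0.35 to 0.43. Whether both compartments differ in their response was not tested, since the members are not replicates of a condition.

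**Figure D3:**
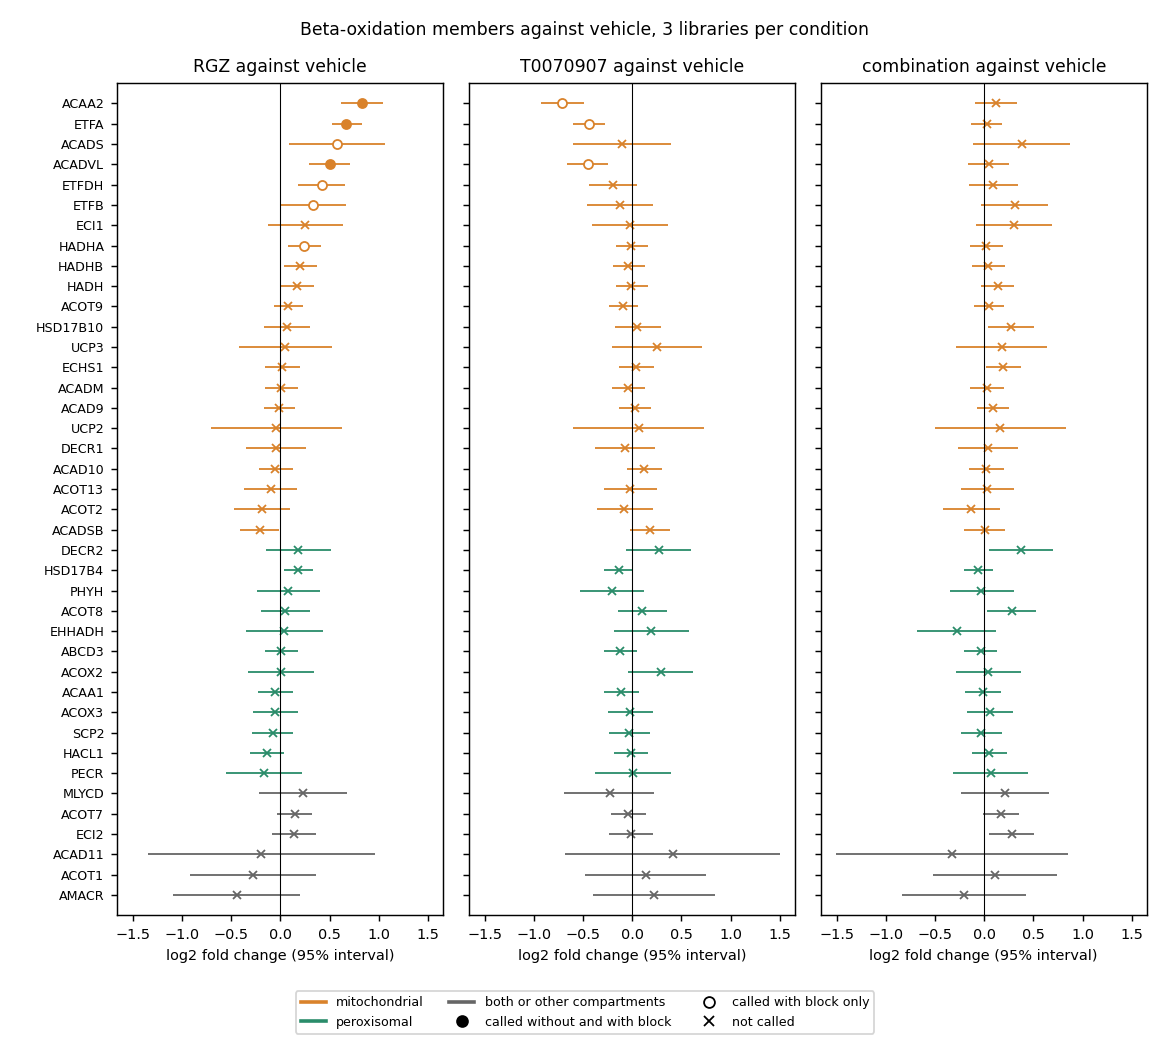
Log2 fold change against vehicle of the 40 tested members with its 95% interval from edgeR without the block, for RGZ, T0070907 and the combination, which share the 3 vehicle libraries. Filled circles mark members called without and with the block, open circles those called with the block only, and crosses those not called. All called members are mitochondrial, higher with RGZ (up to 0.83 in *ACAA2*) and lower with T0070907 (down to -0.71 in *ACAA2*), and none is called for the combination.

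The 6 members of both or other compartments included 0 calls for RGZ in either edgeR fit, against 1.24% and 9.3% of all tested genes. DESeq2 called 0 of them without and 0 with the block, where it called 299 and 871 of all genes. At an unadjusted p-value under 0.05, edgeR had 0 without and 2 with the block, against 10.5% and 22.1% of all tested genes. The log2 fold changes of the 6 members ranged from -0.44 in *AMACR*, a racemase of branched chains, to 0.23 in *MLYCD*, malonyl-CoA decarboxylase. Per length both genes were low, at 0.853 and 0.758 CPM per kb in vehicle. Before division by length they averaged 3.54 and 9.89 CPM, and the longest transcript of *MLYCD* has 13038 bases.

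T0070907 alone was compared with vehicle to see what the antagonist did without added agonist. Without the block, edgeR called 0 of the 40 members and 0.0074% of all genes, while 3 members and 3.1% of all genes had an unadjusted p-value under 0.05. With the block, those 3 members were called, all lower, against 0.91% of all genes, and DESeq2 called the same 3 without and with the block, among 21 and 116 of all genes. They were *ACAA2*, *ETFA* and *ACADVL*, the genes that were higher with RGZ, and both contrasts use the same vehicle libraries. The median log2 fold change was -0.03 over the mitochondrial and -0.02 over the peroxisomal members, and 0.00 over all genes.

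In *ACAA2* the level went from a mean of 37.1 ± 0.873 to 22.7 ± 0.928 CPM (SD, n = 3 each), a log2 fold change of -0.71 (adjusted p = 0.0842 without and 0.000568 with the block). *ETFA* differed by -0.44 on the log2 scale (adjusted p = 0.116 and 0.000725) and *ACADVL* by -0.45 (0.389 and 0.000725). Each of the 3 was lower in all 3 experiments. The remaining members called with RGZ had smaller values, -0.20 in *ETFDH*, -0.12 in *ETFB*, -0.10 in *ACADS* and -0.01 in *HADHA*, and were not called. Without the block, *ACAA2* was called once library 3 of the combination was left out (adjusted p = 0.0381). With the block, leaving out experiment 3 brought the adjusted p to 0.0918 in *ACAA2*, 0.0691 in *ETFA* and 0.138 in *ACADVL*.

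The combination was set against vehicle to see whether the antagonist returned the members to the level of vehicle. EdgeR called 0 of 40 members and 0% of all genes without the block, and 0 members and 0% of all genes with it. The count of members with an unadjusted p-value under 0.05 was 5 without and 9 with the block, near the background of 10.6% and 21.2% of all tested genes. DESeq2 called 0 members and 0 of all genes, and with the block 1 member, *ETFB*, among 239 of all genes. *ACAA2* had a log2 fold change of 0.12 (95% interval from -0.09 to 0.33), *ETFA* of 0.03 (from -0.13 to 0.18) and *ACADVL* of 0.05 (from -0.16 to 0.25). *ETFB* was at 0.31 (from -0.03 to 0.65) and *ACADS* at 0.38 (from -0.11 to 0.87), and for both an increase as large as with RGZ alone lay within the interval. Of the 22 mitochondrial members 21 had a positive log2 fold change, of the 12 peroxisomal members 6 did, and of all tested genes 49.8% did. The medians were 0.07, 0.02 and 0.00, so the mitochondrial differences were small, with -0.13 and 0.38 as the extremes.

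In the direct comparison of the combination with RGZ alone, 3 members were called, all lower, against 1.24% of all genes. *ETFA* differed by -0.64 ± 0.07 on the log2 scale (adjusted p = 0.00174), *ACAA2* by -0.71 ± 0.10 (0.00525) and *ACADVL* by -0.46 ± 0.09 (0.0428). In the fit of only the groups compared, *ACAA2* (adjusted p = 0.0607) and *ACADVL* (0.108) were not called. The *ACADVL* call was also lost without the block when a single library was left out, namely library 3 of vehicle (adjusted p = 0.0644), library 2 (0.138) or 3 (0.166) of RGZ, library 1 (0.0569) or 3 (0.0571) of T0070907, or library 1 (0.189) or 2 (0.115) of the combination. With the block 6 members were called, against 11.4% of all genes. The added ones were *HADHA* (-0.22, adjusted p = 0.0144), *ETFDH* (-0.33, 0.047) and the peroxisomal *HSD17B4* (-0.24, 0.00985), all lower than with RGZ. Leaving out an experiment in that fit removed the calls of *HADHA* (adjusted p = 0.0784 without experiment 2 and 0.132 without experiment 3), of *HSD17B4* (0.119 without experiment 1 and 0.155 without experiment 3) and, whichever was left out, of *ETFDH* (0.0968, 0.0702 and 0.291), which DESeq2 with the block did not call either (0.172).

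Beside the values given for vehicle and RGZ, *HSD17B4* had 130, 129 and 135 CPM under T0070907 and 125, 145 and 147 CPM in the combination. All RGZ libraries were above those of the combination. It was the only peroxisomal member called in any contrast and either edgeR fit. *HADHA* had 183, 192 and 199 CPM under T0070907 and 184, 196 and 206 in the combination, and both groups overlapped vehicle. *ETFDH* had 14.2, 12.8 and 16.1 CPM under T0070907 and 17.4, 17.9 and 17.5 in the combination, which lay below all RGZ libraries. *ETFB*, in contrast, had 162, 138 and 187 CPM with the combination and 141, 175 and 179 with RGZ, which overlapped. Its T0070907 libraries had 102, 114 and 144 CPM. The log2 difference of -0.02 between the combination and RGZ had a 95% interval from -0.36 to 0.31. *ACADS* had 4.97, 7.07 and 6.12 CPM under T0070907 and 8.03, 9.68 and 7.82 in the combination, where all 3 libraries were above those of vehicle although the gene was not called.

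The combination was also compared with T0070907 alone, which gives the effect of RGZ in the presence of the antagonist from libraries other than those of RGZ against vehicle. EdgeR called 1 member, *ACAA2*, without the block, against 0.037% of all genes, and 4 with it, against 8.76%. *ACAA2* was higher by 0.83 ± 0.10 on the log2 scale (adjusted p = 0.011 and 5.19e-05). The call without the block was lost when library 1 (adjusted p = 0.113), 2 (0.0592) or 3 (0.112) of T0070907 or library 3 of the combination (0.0504) was left out, and in the fit of only the groups compared (0.216). With the block, *ACADVL* was higher by 0.50 (adjusted p = 0.146 without and 0.000123 with it), *ETFA* by 0.47 (0.0599 and 0.000139) and *ETFB* by 0.44 (0.262 and 0.0076). In that fit, leaving out experiment 3 brought the adjusted p to 0.0502 in *ACAA2*, 0.0774 in *ETFA*, 0.0977 in *ACADVL* and 0.196 in *ETFB*. Without the block, *ETFA* was called when library 2 of vehicle (adjusted p = 0.0354) or library 1 of the combination (0.0371) was left out. The medians were 0.12 over the mitochondrial and 0.08 over the peroxisomal members, and -0.01 over all tested genes.

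For *ACAA2* and *ACADVL* the effect of RGZ was thus the same to 2 decimals without and with T0070907, from a lower starting level with it. The interaction term, which tests whether the effects differ, was called for 0 of the 40 members without the block, where 0% of all genes were called, and for 0 with it, against 0.281% of all genes. At an unadjusted p-value under 0.05 there were 0 members without and 3 with the block, against 3% and 9.79% of all tested genes, and DESeq2 called 0 in both forms. With the block, the interaction was 0.01 for *ACAA2* (95% interval from -0.25 to 0.26), 0.00 for *ACADVL* (from -0.18 to 0.18), -0.20 for *ETFA* (from -0.37 to -0.03, adjusted p = 0.427) and -0.21 for *HADHA* (from -0.37 to -0.05, adjusted p = 0.383). *HADHA* was higher by 0.24 with RGZ alone and by 0.03 in the presence of T0070907, a difference that did not pass the adjusted threshold.

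Across the 40 tested members, the effects of RGZ without and with T0070907 had a Pearson r of 0.78 and a Spearman rho of 0.77, and 28 had the same sign. Without *ACAA2*, *ETFA* and *ACADVL*, the values were 0.68 and 0.71 over 37 genes, with 25 of the same sign. Over all 13522 tested genes they were 0.57 and 0.51, and 9419 had the same sign, a share close to that of the members. The points are genes measured in the same 3 experiments and are not independent of each other.

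**Figure D4:**
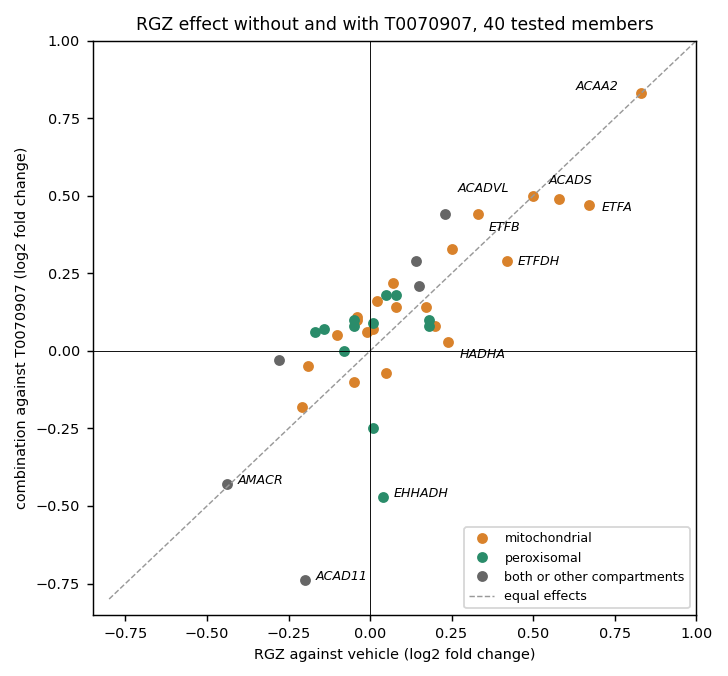
Log2 fold change of RGZ against vehicle (horizontal axis) and of the combination against T0070907 (vertical axis) for the 40 tested members, coloured by compartment, with a dashed line at equal effects. *ACAA2* (0.83 on both axes) and *ACADVL* (0.50 on both) lie on the line, and *HADHA* (0.24 and 0.03) lies below it.

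Summed over its members, the mitochondrial list differed more between the conditions than the peroxisomal list. The sum of CPM per kb over the mitochondrial members was 926 ± 69.2 with vehicle and 1130 ± 70 with RGZ, and over the peroxisomal members it was 130 ± 5.29 and 132 ± 5.13 (SD, n = 3 each). The ratio of both sums was 6.94, 7.44 and 6.94 in the vehicle libraries, 8.34, 8.67 and 8.75 under RGZ, 6.46, 6.61 and 6.5 under T0070907 and 8.01, 7.19 and 7.5 in the combination. All RGZ libraries were above all others, and all T0070907 libraries below all others. Without *ACADVL*, *ETFA* and *ACAA2*, the mean ratios were 4.53 ± 0.171, 4.82 ± 0.11, 4.62 ± 0.0624 and 4.98 ± 0.418 in the same order (SD, n = 3 each), and the groups overlapped. The vehicle libraries then had 4.45, 4.73 and 4.42 and the RGZ libraries 4.69, 4.88 and 4.88, so that RGZ was higher within each of the 3 experiments by less than with all members. Combination library 1 was highest, at 5.46, and the T0070907 libraries lay within the range of vehicle. The 3 genes were left out after their values were seen, and the ratio was not tested.

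**Figure D5:**
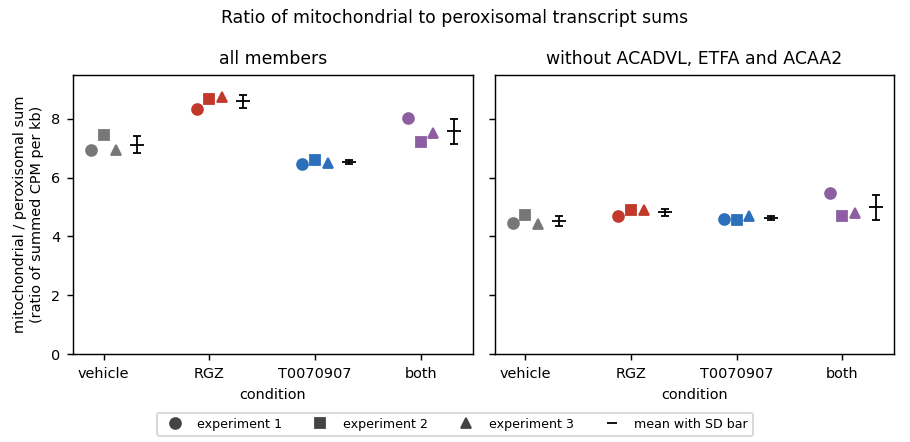
Ratio of the summed CPM per kb of the mitochondrial to that of the peroxisomal members in each library, by condition, with all members (left) and without *ACADVL*, *ETFA* and *ACAA2* (right). Symbols mark the experiment and bars the mean and SD of 3 libraries. With all members the RGZ libraries lie between 8.34 and 8.75 and the T0070907 libraries between 6.46 and 6.61.

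The experiments themselves differed for some members. The share of the variance of log2 CPM that went with the condition was 97.3% for *ETFA*, 97.1% for *ACAA2*, 91.7% for *ACADVL* and 85.6% for *ETFDH*. In *UCP2*, an uncoupling protein of the inner membrane, 88.3% went with the experiment, with means over the conditions of 23.2, 32.7 and 18.2 CPM in experiments 1 to 3, and in *DECR1*, an auxiliary reductase for unsaturated chains, 75.6% did. The condition took the larger share in 27 of 40 members (67.5%) and in 56.2% of all tested genes.

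For other genes of the same pathways, the shares called for RGZ with the block are to be read against the 9.3% of all tested genes, and unadjusted p-values under 0.05 against 10.5% without and 22.1% with the block. Of 19 tested other peroxisomal enzymes and transporters, edgeR called 0 without the block (4 at an unadjusted p under 0.05) and 2 with it (10.5%), both higher. These were *CAT*, the catalase that removes hydrogen peroxide (log2 fold change 0.28, adjusted p = 0.263 and 0.00413), and *AGPS*, an enzyme of ether lipid synthesis (0.30, 0.295 and 0.0139).

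None of the 16 peroxins, which build peroxisomes, was called for RGZ against vehicle in either edgeR fit (2 at an unadjusted p under 0.05 in each fit). Of 16 tested other acyl-CoA and propionyl-CoA enzymes of mitochondria, 0 were called without (3 at an unadjusted p under 0.05) and 1 with the block (6.25%), *SLC25A42*, a mitochondrial carrier of coenzyme A, which was lower (-0.64, adjusted p = 0.0191). Of 9 genes that assist the flavoprotein and *ACAD9*, 0 were called without (1 at an unadjusted p under 0.05) and 1 with the block (11.1%), the riboflavin transporter *SLC52A2* (0.28, adjusted p = 0.0404). The carnitine shuttle gene *CPT1A*, outside the list, averaged 62.4 CPM in vehicle, 107 under RGZ, 36.3 under T0070907 and 57.4 in the combination. Its log2 fold change for RGZ was 0.78 ± 0.12 (adjusted p = 0.00743), close to that of *ACAA2*.

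Marker genes of the lineage and of other cell types were measured beside these values. Their calls for RGZ with the block are to be read against 9.3% of all tested genes. The sum of the 8 melanocyte lineage markers (4 tested) ranged from 281 to 498 CPM with vehicle and from 229 to 422 with RGZ, where *S100B* and *MITF* were called lower with the block. The summed keratinocyte markers (2 of 3 tested) ranged from 14.3 to 33.4 CPM with vehicle and from 6.51 to 16.7 with RGZ, where *KRT14* was called lower with the block. The 3 leukocyte markers ranged from 35.5 to 73.8 CPM with vehicle and from 49.6 to 97.3 with RGZ. Nearly all of that was *CD68*, a lysosomal gene also called higher with the block, as *PTPRC* had at most 2 counts and *CD3E* at most 1. The fibroblast markers (3 of 5 tested, 1 called lower with the block) ranged from 13.2 to 34.2 CPM with vehicle and from 9.64 to 21.6 with RGZ, and the adipocyte markers from 0.118 to 0.833 CPM with vehicle and from 0.416 to 3.54 with RGZ, with *ADIPOQ* at 0 in all libraries and at most 31 counts of *CIDEC*. With the block, 1 melanocyte lineage marker was called higher with T0070907 than with vehicle, against 0.91% of all tested genes called. In the combination against RGZ, 2 melanocyte lineage markers and 1 keratinocyte marker were called higher and 1 leukocyte marker lower, against 11.4% of all genes. In the combination against T0070907, 1 fibroblast marker was called lower, against 8.76% of all genes. Endothelial and hepatocyte markers reached at most 2.5 and 0.119 CPM. The part of these differences in the values of the beta-oxidation members was not tested.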

How the data were processed

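The authors deposited raw read counts per gene for 23705 genes, listed by NCBI gene number, from TruSeq libraries of total RNA. The submitters' processing notes name the genome build hg19, while the aligner, the annotation and the strand setting are not given in the sources used here. The table held 0 columns of other samples. Symbols were found for 23538 genes in RefSeq. Transcript lengths and exon overlaps came from GENCODE, and promoters from RefSeq for GRCh38.p14.

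The analysis used edgeR 4.0.16 under R 4.3.3. After TMM scaling and filterByExpr, a quasi-likelihood model of the 4 conditions was fitted to all 12 libraries, and p-values were adjusted over all 13522 tested genes. Since the paper states no model for these libraries, the fit without a block is given first. The experiment number in the labels pairs the libraries. Deviations from the condition means correlated at 0.554 on average (from 0.0793 to 0.758) over 18 pairs of libraries of the same experiment. Standard errors are approximate and follow from the log2 fold change and its F statistic. DESeq2 1.42.0, other scaling and filters, fits of only the groups compared and fits leaving out libraries were alternatives. Intervals and the detection floor cover sampling or counting error only.

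The members, the gene lists and the compartments were chosen with earlier results of these data known. Named with all libraries were members called in any contrast in either edgeR fit. Counts were given for members that failed the filter, and levels for the 3 highest per compartment. Of the other lists, genes called for RGZ were named with *CAT* and *CPT1A*. Some genes that the rule names are not reported here. Further members were named by their step in the pathway after their values were seen.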

Additional observations from a re-analysis of the deposited data

Results flagged for a closer look

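*EHHADH*, the peroxisomal L-bifunctional protein, was the only tested member flagged by a rule on reversed signs. The rule asked for differences of the same sign in all 3 experiments without the other compound, and of the opposite sign in all 3 with it. The share of all tested genes that met this rule was not counted. Against vehicle, T0070907 gave log2 differences of 0.10, 0.14 and 0.30 in experiments 1 to 3, and in the presence of RGZ it gave -0.47, -0.15 and -0.32. Its levels were 3.86, 4.28 and 3.88 CPM in the vehicle libraries, 4.37, 4.34 and 3.65 under RGZ, 4.16, 4.74 and 4.83 under T0070907 and 3.09, 3.89 and 2.89 in the combination. The interaction term was -0.51 (adjusted p = 1 in edgeR), and with the block -0.52 (adjusted p = 0.524, unadjusted p = 0.0578), so that the difference did not pass the threshold in either fit. Exons of *EHHADH* overlap an antisense gene over 5.7% of their bases.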

How the results depend on the processing

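With the replicate block, 7 members were called for RGZ against vehicle, 3 for T0070907 against vehicle, 6 for the combination against RGZ and 4 for the combination against T0070907, where the fit without it called 3, 0, 3 and 1. Over all tested genes, the block moved the calls from 167, 1, 167 and 5 to 1258, 123, 1545 and 1185. For the combination against vehicle and the interaction the block left the count at 0. DESeq2 with the replicate block called 5, 3, 5 and 4 members in the same order and 1 for the combination against vehicle, with 871, 116, 1050, 882 and 239 calls over all genes. DESeq2 without it called 3 for T0070907 and 2 for the combination against T0070907, among 21 and 81 of all genes, and in the latter gave *ACAA2* no adjusted p. With no filter on low counts 1 and 2 were called in these contrasts, among 3 and 10 of all genes. In fits of only the groups compared, 2 members were called for RGZ against vehicle (69 of all genes), 1 member for the combination against RGZ (41 of all genes) and 0 against T0070907 (0 of all genes). Leaving out 1 library at a time without the block gave between 2 and 3 calls for RGZ, 0 and 1 for T0070907, 2 and 3 for the combination against RGZ, 0 and 2 against T0070907, and 0 for the other contrasts. Over all genes, the calls for RGZ then numbered 45, 88 and 66 without vehicle libraries 1 to 3, 88, 68 and 74 without RGZ libraries 1 to 3, and 121 to 168 otherwise. For the combination against RGZ they numbered 87, 85 and 63 without the RGZ libraries, 53 and 110 without combination libraries 1 and 2, and 121 to 148 otherwise. For T0070907 against vehicle, all genes gave 0 to 5 calls in these fits, and the numbers for the combination against T0070907 are not given here. The cause of these shifts was not tested.

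For the 20 pairs of a member and a contrast with a call in either edgeR fit, the log2 fold change kept its direction in all 419 values under the alternatives. Of these, 345 stayed on their side of the threshold, 54 gained a call and 20 lost one, compared with the fit without the block. No member called without the block lost its call with it. Low counts limit the precision for *ACADS*, *EHHADH*, *UCP3*, *AMACR*, *ACAD11*, *MLYCD* and *ACOT1*, and 3 experiments in 1 cell line limit all results.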
